A study of Mus musculus with 6 samples.

Results

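Chromatin accessibility was described for 9 genes that pattern the dermomyotome, the somite layer from which skeletal muscle, dorsal dermis and brown fat arise, or that are used to mark the brown fat depot: Zic1, Zic4, Lhx8, Meox2, En1, Myf5, Myf6, Pax3 and Pax7. They are 9 of the 21851 mouse protein-coding genes with a start site in GENCODE's basic set. They were chosen by name and not by a cut-off on a measured value, but with earlier results of these data known. Zic1 and Zic4 overlap each other on opposite strands, and Myf5 and Myf6 are neighbours, so the 9 genes lie in 7 loci. A peak was assigned to a locus if its summit lay between 50 kb before and 50 kb after the gene, and to a promoter if it lay within 1 kb of a start site. Positions below are in mm10, and distances are positive in the direction of transcription.

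The data are peak lists from ATAC-seq, in which a transposase inserts adaptors into DNA that is not wrapped in nucleosomes, so that a peak marks open chromatin. Stromal vascular cells, the mixture of progenitor and other cells left when the floating adipocytes of digested fat are removed, were taken from wild type male C57BL/6J mice 3 to 4 weeks old and differentiated in culture for 7 days. Brown adipocytes came from brown adipose tissue, while beige and white adipocytes both came from inguinal adipose tissue, a subcutaneous depot, with 2 libraries per group and 6 in all. All media, as labelled, held 0.5 mM of the phosphodiesterase inhibitor IBMX. They also held insulin, at 5 µg/ml in every group by the sample labels, whereas the study's methods give lower doses that differ between beige and white, so the insulin dose is uncertain. The brown and beige cultures shared 5 µM of the glucocorticoid dexamethasone, 1 nM of the thyroid hormone T3 and 1 µM of the PPARγ agonist rosiglitazone, whereas the white cultures had 1 µM dexamethasone and neither T3 nor rosiglitazone. Brown and beige cultures thus differed in the depot of origin under the same agents as labelled, and brown and white cultures differed in depot and medium. By the study's methods, dexamethasone and IBMX were left out of the beige and white media at the first change, before the 7 days ended. Those methods describe no medium for brown cultures. Whether the brown cultures were made alongside the inguinal ones is not given in the sources used here, so depot and time of preparation cannot be told apart. Nor do they say how many mice each culture pooled. With 2 brown libraries against 4 inguinal ones, an exact two-sided permutation test could not go below p = 0.133, and with 2 against 2 not below p = 0.333, so values are given per library with no test.

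In the embryo, Pax3 and Pax7 are paired box factors of the dermomyotome and of muscle progenitors, and Myf5 and Myf6 are basic helix-loop-helix factors that commit cells to skeletal muscle. En1 is a homeobox factor of the central dermomyotome, whose descendants include dorsal dermis and interscapular brown fat. The zinc finger factor Zic1 and the LIM homeobox factor Lhx8 are widely used as markers of brown as opposed to inguinal fat, and Meox2 is a homeobox factor of somites and muscle. Open chromatin at a gene is not a measure of its transcription, and no transcript measurement was used here.

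The brown lists held 113861 and 109143 peaks, the beige lists 118812 and 127490, and the white lists 120473 and 119385, so both brown lists were shorter than every inguinal one. All 10 adipocyte markers examined, among them Adipoq, Cebpa, Cidea and Cidec, had a promoter peak in every library, as did 62.0% of all genes. Of 8 macrophage markers 2 or 3 had one in each library, with none at Csf1r, Itgam, Ptprc or Spi1, a peak in all 6 libraries at Adgre1 and Cd68, in 4 at Cd14 and in 1 at Lyz2. Of 8 endothelial markers 5 or 6 had one, of 6 adipose progenitor markers 4 or 5, and of 6 Schwann and neural crest markers 3 or 4. Of 6 muscle stem cell markers, 4 and 2 had a promoter peak in the brown libraries and 4 in each inguinal library. Because a peak list is made from many cells, more cells with an open site and a more open site per cell cannot be told apart.

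The Zic1 and Zic4 locus stood apart from the other 6. It held 14 and 13 peaks in the brown libraries, 6 and 8 in beige and 5 and 7 in white. Both brown libraries lay above all 4 inguinal ones, with a mean of 13.5 ± 0.71 (SD, n = 2) against 6.5 ± 1.3 (SD, n = 4), a ratio of 2.08. The beige mean of 7.0 ± 1.4 and the white mean of 6.0 ± 1.4 (SD, n = 2 each) overlapped. More peaks in both brown than in every inguinal library were found at 1.38% of the 20558 genes with a peak in their window. Among 16720 genes with a mean of at least 5 peaks per library, 5 genes (0.0299%) had a ratio this high, namely Cntnap5a at 2.47, Csmd1 at 2.15, Gm9925 at 2.13, and Zic1 and Zic4, which share their peaks.

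Overlapping peaks of the 6 libraries formed 14 regions at Zic1 and Zic4, of which 4 had a peak in both brown and no inguinal library (called brown-only below), 3 had one in all 6 libraries, 1 in a single library, and none had one in all 4 inguinal and no brown library. Across the genome 0.877% of 194610 regions were brown-only, 1.16% were the inverse and 30.2% were open in all 6 libraries. A brown-only region lay within 50 kb of 9.53% of genes, and 4 or more lay near 9 genes (0.0412%): 1700025G04Rik, Cadps, Col4a1, Csmd1, Fgfr2, Gm20388, Prkce, Zic1 and Zic4.

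The brown-only region nearest to Zic1, at chr9:91365726-91366055, covered its start site. Its summit lay at -106 bp in brown replicate 1 and at -105 bp in brown replicate 2, with a -log10 q of 25.5 and 32.8, where q is the peak caller's adjusted p for that library. These values ranked at the 70.0 and 80.3 percentile of -log10 q within their own lists, well above the threshold for a peak. Because q depends on the depth of a library, its percentile among the peaks of the same list is used below to set libraries side by side, although it also moves with the other peaks of that list. The 3 others were weaker. The region at 14.7 kb, chr9:91350822-91351432, had a -log10 q of 18.1 and 13.9, that at 12.8 kb, chr9:91352871-91353124, had 8.07 and 5.94, and that at -14.9 kb, chr9:91380580-91380780 over an exon of Zic4, had 9.96 and 7.50.

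Sequences of 3 brown-only regions are given to show what lies under the peaks, with the region at -15.8 kb, open in all 6 libraries, for contrast. Each is the 201 bases centred on the summit of the strongest library, read from GRCm38.p6 (mm10) on the minus strand, which is the strand of Zic1. The windows are chr9:91365815-91366015, chr9:91352919-91353119, chr9:91351055-91351255 and chr9:91381489-91381689 in that order, and capitals mark matches to the motifs described in the next paragraph.
Zic1 -105 bp, brown-only: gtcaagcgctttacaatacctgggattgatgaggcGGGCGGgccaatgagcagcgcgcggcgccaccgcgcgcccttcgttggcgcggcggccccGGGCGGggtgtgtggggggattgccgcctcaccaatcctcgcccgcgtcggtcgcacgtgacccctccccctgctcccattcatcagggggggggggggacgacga
Zic1 12.8 kb, brown-only: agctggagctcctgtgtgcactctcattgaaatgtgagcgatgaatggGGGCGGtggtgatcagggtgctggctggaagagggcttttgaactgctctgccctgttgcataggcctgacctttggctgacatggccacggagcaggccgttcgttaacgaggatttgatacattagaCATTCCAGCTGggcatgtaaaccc
Zic1 14.7 kb, brown-only: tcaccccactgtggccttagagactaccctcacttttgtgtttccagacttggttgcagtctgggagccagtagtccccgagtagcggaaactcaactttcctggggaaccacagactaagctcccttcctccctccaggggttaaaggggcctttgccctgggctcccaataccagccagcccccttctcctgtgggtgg
Zic1 -15.8 kb, all libraries: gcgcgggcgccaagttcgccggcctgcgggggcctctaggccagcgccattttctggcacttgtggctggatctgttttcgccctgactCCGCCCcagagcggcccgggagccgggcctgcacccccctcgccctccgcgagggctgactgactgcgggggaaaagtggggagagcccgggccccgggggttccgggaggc

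The windows were searched on both strands for 7 short motifs chosen after the values were seen, the E-box CAGCTG, AP-1 TGANTCA, C/EBP TTGCNNAAT, the homeobox core TAATTA, TEAD GGAATG, the GC box GGGCGG and ETS CCGGAAG. The window at the Zic1 start was 71.6% G and C and held 2 GC boxes, at -65 and -5 bases from its summit. A GC box was present in 10.6% of all regions, in 5.80% of brown-only regions and in 21.5% of regions open in all 6 libraries. The window at 12.8 kb held a GC box, a TEAD match and an E-box, the last 2 sharing 1 base. TEAD letters were present in 14.1% of all regions and E-box letters in 15.4%. No motif of the set was found at 14.7 kb, and the window at -15.8 kb, 73.6% G and C, held 1 GC box. AP-1 letters, present in 21.2% of all regions and in 30.1% of brown-only regions, were in none of the 5 brown-only windows near the 9 genes. A match says only that these letters occur in the window.

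Regions shared with the inguinal libraries differed in strength along the Zic1 locus. At 10.0 kb, chr9:91355499-91355972, the percentile was 81.3 and 80.1 in the brown libraries, 15.8 and 37.5 in beige and 21.8 in white replicate 2, and white replicate 1 had no peak. At 1.58 kb, over coding sequence of Zic1, it was 62.9 and 61.9 in the brown libraries, 9.86 in beige replicate 1 and 18.3 in white replicate 2, with no peak in the other 2. In both places the brown libraries lay above every inguinal library that had a peak, but no share of all regions is given for this order. The region at 0.539 kb, in the 5' untranslated region of Zic1, had it as well. It ranked at 53.8 and 39.4 in brown and at 33.9 in beige replicate 2, the only inguinal library with a peak there. The regions at 3.64 and 1.07 kb, also within Zic1, did not show this order. At 3.64 kb, chr9:91361799-91362529, the brown percentiles of 53.7 and 53.0 lay among the inguinal ones, 61.6 and 72.2 in beige and 72.3 and 48.7 in white. At 1.07 kb the brown values of 49.2 and 35.4 again overlapped the inguinal range of 38.7 to 48.0. The region at -15.8 kb, in an intron of Zic4, was open in all 6 libraries, at 86.4 and 77.7 in brown, 67.3 and 76.1 in beige and 59.0 and 63.9 in white. There too both brown libraries lay above every inguinal one, with brown replicate 2 close to beige replicate 2.

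**Figure D1:**
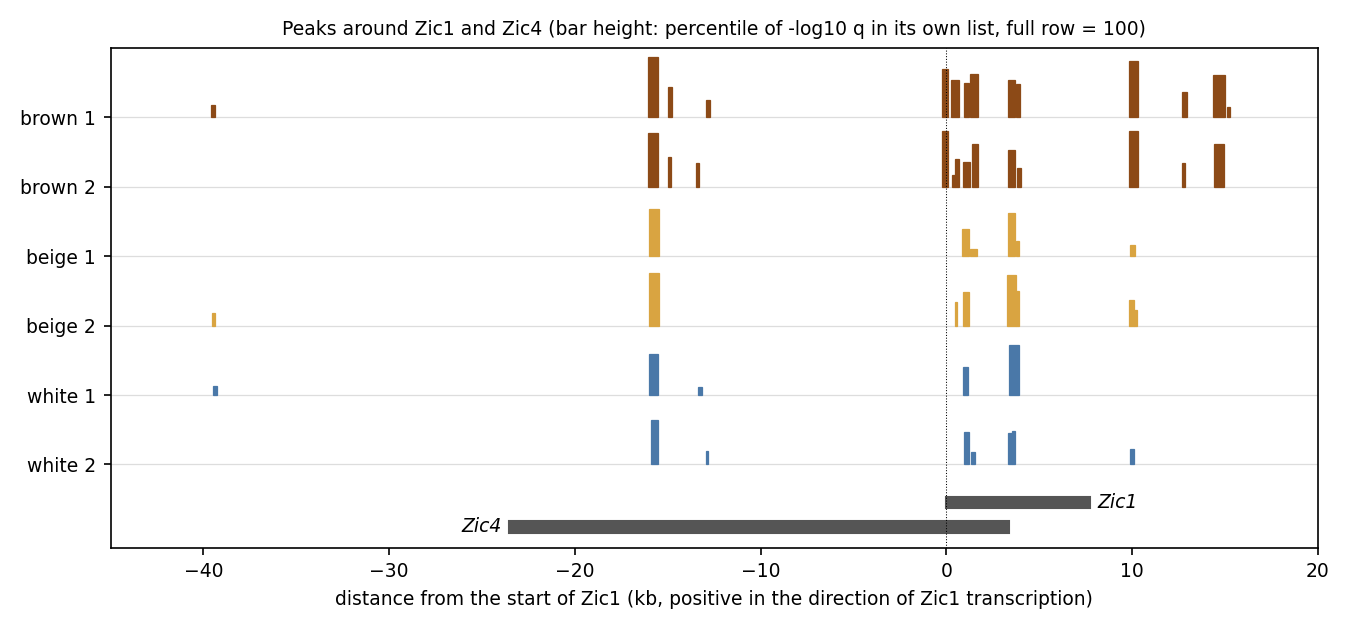
Peaks of each library around Zic1 and Zic4, by distance from the Zic1 start in kb (x axis), with bar height giving the percentile of -log10 q within the library's own list and grey boxes giving the extent of the 2 genes. Bars at the start, at 12.8 kb, at 14.7 kb and at -14.9 kb appear in both brown rows and in no beige or white row, while those at 1.07, 3.64 and -15.8 kb appear in all rows.

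Zic1 was open within 1 kb of a start in both brown libraries, and among the inguinal libraries in beige replicate 2 alone, where a summit at 525 bp reached a percentile of 33.9. That inguinal peak overlapped brown peaks at 0.539 kb in the 5' untranslated region and not the region at the start. Within 250 bp of a start Zic1 was therefore open in both brown and no inguinal library, as were 45 genes in all (0.206%). Counting instead genes whose start had the summit of a brown-only region within 250 bp left 24 (0.110%), among them Zic1, the thermogenic uncoupling protein gene Ucp1 and the mesothelial and urogenital factor Wt1, the last 2 named after their values were seen. The others were 1700034J05Rik, 5530401A14Rik, Ddx4, Efcab10, Fgf14, Foxs1, Gzmb, Ino80d, Jph2, Kcnc2, Lce1j, Lyve1, Mcpt8, Nkx2-1, Olfr51, P2ry14, Rnf17, Scrg1, Slc45a1, Wnt10a and Wnt7b. By the lower of their 2 brown percentiles, the highest of the 45 were Rfx2 at 98.5, Myl12a at 96.7, Opa3 at 96.1, Chd1l at 94.4 and Rev1 at 92.7, and Zic1 ranked 13 with 70.0. Each of those 5 had an inguinal peak within 1 kb in all 4 inguinal libraries, against 1 of 4 for Zic1.

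Zic4 has 3 annotated starts, and its promoter peaks lay near the third, at 9667 and 10228 bp from the first start in brown and at 10065 and 9730 bp in white. The percentiles were low, 24.7 and 34.0 in brown and 11.6 and 19.7 in white, and neither beige library had one. The brown libraries lay above the white ones, but the summits of the 2 brown peaks fell in separate regions, so no single Zic4 promoter region was shared by both brown libraries.

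At Lhx8 the brown libraries stood apart in the rank of the promoter peak, not in its presence. Its promoter region, chr3:154330174-154330713 in the 5' untranslated region, was open in every library. The percentile was 70.2 and 72.8 in the brown libraries, 24.6 and 43.4 in beige and 48.4 and 52.3 in white. The means were 71.5 ± 1.8 in brown, 34.0 ± 13 in beige and 50.3 ± 2.8 in white (SD, n = 2 each), and the brown values lay above all 4 others. Of 13547 promoters open in all 6 libraries, 7.20% had this order. The 2 brown summits were 2 bp apart, at 282 and 284 bp, whereas the inguinal ones were spread from 153 to 371 bp.

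Around Lhx8 the number of peaks went the other way. It was 13 and 13 in brown, 14 and 14 in beige and 14 and 17 in white, so both brown libraries lay below every inguinal one, by a mean of 13.0 ± 0.0 against 14.8 ± 1.5 (SD, n = 2 and 4). That order was found at 12.3% of genes, and both brown lists were the shorter ones. Of 20 regions, 9 were open in all 6 libraries, 7 in 1 library and none was brown-only. The intron region at 12.6 kb had a peak in both beige libraries, at percentiles of 57.3 and 49.9, in brown replicate 2 at 38.3, and in neither white library.

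Meox2 was open at its start in all 6 libraries, and here the brown cultures ranked lowest. The percentile was 63.3 and 60.5 in brown, 65.6 and 66.8 in beige and 77.8 and 84.3 in white. Both brown libraries lay below all 4 inguinal ones, an order found at 11.2% of promoters open in all libraries. The brown and beige libraries both lay below the white ones, as at 12.5% of these promoters, and the beige mean of 66.2 ± 0.85 was nearer to the brown mean of 61.9 ± 2 than to the white mean of 81.0 ± 4.6 (SD, n = 2 each). The strongest summit lay just before the start in brown (-93 and -106 bp), just after it in beige (118 and 121 bp) and farther into the gene in white (601 and 587 bp), all inside the one region chr12:37108060-37109796. At -31.0 kb, chr12:37077372-37077608, a region had percentiles of 3.53 and 33.0 in brown and 57.2 and 54.5 in beige and no peak in white. Regions open in both brown and both beige and no white library made up 1.25% of all regions and 3 of the 100 near the 9 genes, the other 2 near Pax7. Peaks within 50 kb of Meox2 numbered 7 and 9 in brown, 9 and 6 in beige and 5 and 4 in white, so the brown and inguinal libraries overlapped.

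En1 had the strongest promoter region of the 9 genes in both brown libraries. At chr1:120602015-120602591, with the summit of the strongest library at -141 bp, the percentile was 84.3 and 84.2 in brown, 81.9 and 83.1 in beige and 67.4 and 65.3 in white. The white libraries lay apart from the other 4, and 22.2% of promoters open in all libraries had brown and beige above white in this way. Brown and beige means differed by little, at 84.2 ± 0.071 and 82.5 ± 0.85 (SD, n = 2 each), though both brown values lay above both beige ones. The intron region at 2.86 kb fell in the same order, for which no share of all regions is given. It had 80.5 and 82.4 in brown, 68.2 and 61.2 in beige and 58.6 and 41.3 in white. The region at -5.85 kb did not fall in that order, with 80.7 and 72.0 in brown, 57.2 and 78.3 in beige and 85.4 and 83.9 in white. Nor did the region at 1.27 kb, over coding sequence of En1, where both brown libraries lay below every inguinal one. It had 53.6 and 43.8 in brown, 65.2 and 59.3 in beige and 59.8 and 66.5 in white.

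The one region of the 7 loci open in all 4 inguinal and no brown library was also at En1. It lay at 0.587 kb, chr1:120602799-120603131 in the 5' untranslated region, and its -log10 q was low, at 6.03 and 8.39 in beige and 5.07 and 4.01 in white. Peaks within 50 kb of En1 numbered 10 and 7 in brown, 13 and 11 in beige and 10 and 10 in white. The brown and inguinal libraries overlapped. The outer regions at -45.4, 26.5 and 52.9 kb each had a peak in brown replicate 1, at percentiles of 0.0154 to 2.42, and none in brown replicate 2. In the inguinal libraries the first of these was open in all 4 at 25.3 to 49.6, the second in all 4 at 38.5 to 58.1, and the third in 3 of 4 at 12.3 to 29.0.

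The start of En1 is shown since it was the strongest promoter region of the 9 genes in the brown and beige libraries, Meox2 ranking higher in white, as 201 bases of the plus strand at chr1:120602177-120602377 in GRCm38.p6. It was 62.2% G and C, and capitals mark a GC box, an AP-1 match and an ETS match. ETS letters were present in 2.35% of all regions. Of regions open in all 6 libraries, as this one was, 4.76% held ETS letters, 26.4% AP-1 letters and 21.5% a GC box.
En1 -141 bp: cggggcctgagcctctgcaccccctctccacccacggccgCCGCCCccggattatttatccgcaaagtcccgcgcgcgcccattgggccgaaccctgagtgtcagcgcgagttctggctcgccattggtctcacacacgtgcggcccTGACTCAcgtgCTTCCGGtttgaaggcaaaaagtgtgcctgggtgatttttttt

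**Figure D2:**
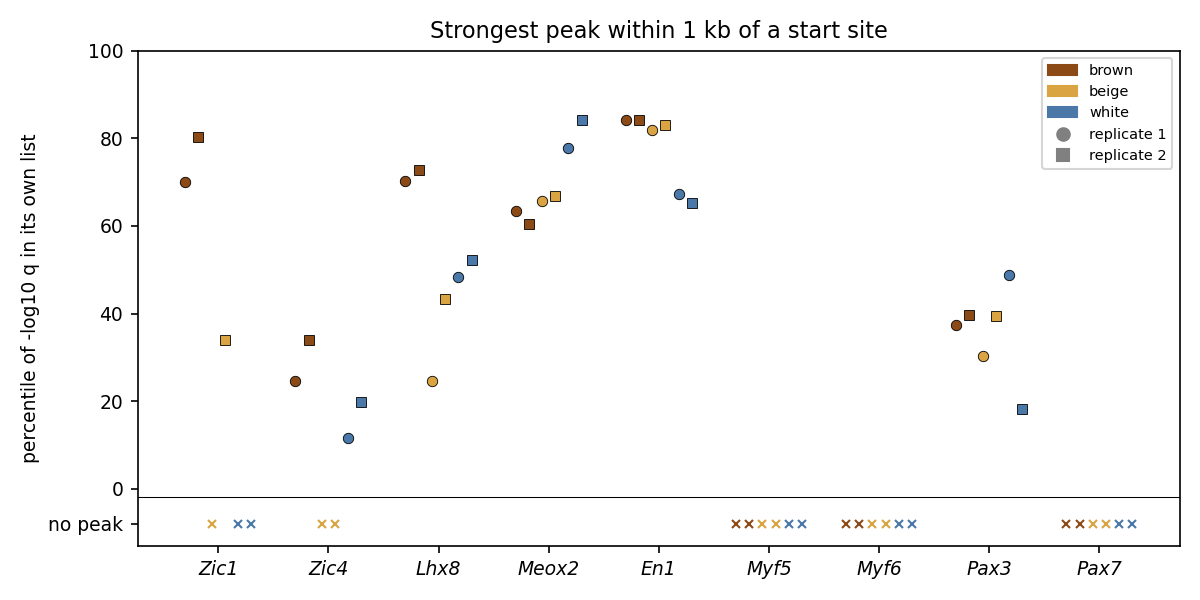
Percentile of -log10 q, within the library's own list, of the strongest peak within 1 kb of a start of each gene (y axis), 1 point per library, coloured by group. The brown points are highest at Zic1, at 70.0 and 80.3, and at Lhx8, at 70.2 and 72.8, lowest at Meox2, at 63.3 and 60.5, and close to the beige ones at En1. Crosses mark libraries with no such peak.

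The myogenic factors Myf5 and Myf6 had no promoter peak in any library, as was found for 28.6% of genes. Peaks within 50 kb numbered 3 and 7 in brown, 4 and 5 in beige and 2 and 5 in white, and the groups overlapped. Of 6 regions, 2 were open in all libraries. One, chr10:107503164-107503954 at -17.5 kb from Myf5, reached 62.2 and 44.9 in brown, 67.3 and 65.1 in beige and 64.1 and 64.9 in white. The other, chr10:107493319-107493818, lay in an intron of Myf6, with the strongest summit of each library between 1046 and 1281 bp from its start, just outside the promoter limit. There the percentile was 12.0 and 33.0 in brown, 41.2 and 49.3 in beige and 26.5 and 34.1 in white. Over the coding sequence of Myf5 a peak was called in brown replicate 2 at 1.93 and in beige replicate 2 at 34.7, and in no other library.

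Pax3 was open at its start in all 6 libraries, at moderate rank. The percentile of its strongest promoter peak was 37.3 and 39.7 in brown, 30.3 and 39.4 in beige and 48.7 and 18.3 in white, and the groups overlapped. Peaks within 50 kb numbered 15 and 13 in brown, 11 and 14 in beige and 14 and 13 in white, again overlapping. Of its 17 regions 6 were open in all libraries and 6 in 1 library. The strongest, chr1:78057844-78058508 at 139.0 kb from the start and beyond the end of the gene, ranked at 93.0 and 89.2 in brown, 92.7 and 90.4 in beige and 93.6 and 90.2 in white.

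Pax7, by contrast, had no promoter peak in any library. Its start was rich in CpG, with 59.8% G and C and an observed to expected CpG ratio of 0.638 within 500 bp. Of 10044 genes with such a start (at least 50% G and C and a ratio of at least 0.6) 95.3% had a promoter peak in all 6 libraries and 129 (1.28%) had none, Pax7 among these. The other members with a CpG-rich start by this measure were Zic1 with a ratio of 0.720, En1 with 0.764 and Pax3 with 0.669. Lhx8, whose ratio was 0.610, fell just short in G and C at 49.4%. The starts of Myf5, Myf6, Meox2 and Zic4 had ratios of 0.406, 0.379, 0.444 and 0.412. Of the 11807 genes whose starts were not CpG-rich, 33.6% were open in all libraries and 51.8% in none.

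Around Pax7, 12 and 7 peaks were found in brown, 5 and 7 in beige and 10 and 5 in white, so the spread within a group was as wide as that between them. Of 20 regions, 11 had a peak in 1 library, 4 of them in brown replicate 1 and 6 in white replicate 1. The region at -25.3 kb, chr4:139858719-139858985, was open in all 6 libraries, with a percentile of 69.1 and 81.3 in brown, 79.1 and 92.9 in beige and 75.0 and 75.7 in white. One region was brown-only, at -7.77 kb, chr4:139841199-139841403, with a -log10 q of 5.42 and 7.05. At -39.2 kb, chr4:139872671-139872892, a region had 37.1 and 42.9 in brown, 53.9 and 68.4 in beige and no peak in white.

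The brown-only region is shown as the only one outside Zic1 and Zic4, as 201 bases of the minus strand, the strand of Pax7, at chr4:139841200-139841400 in GRCm38.p6. It was 58.2% G and C and held no motif of the set, so it has no capitals.
Pax7 -7.77 kb, brown-only: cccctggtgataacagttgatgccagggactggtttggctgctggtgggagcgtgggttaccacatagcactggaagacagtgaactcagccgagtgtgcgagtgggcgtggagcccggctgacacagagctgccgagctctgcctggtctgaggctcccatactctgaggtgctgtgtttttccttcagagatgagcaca

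**Figure D3:**
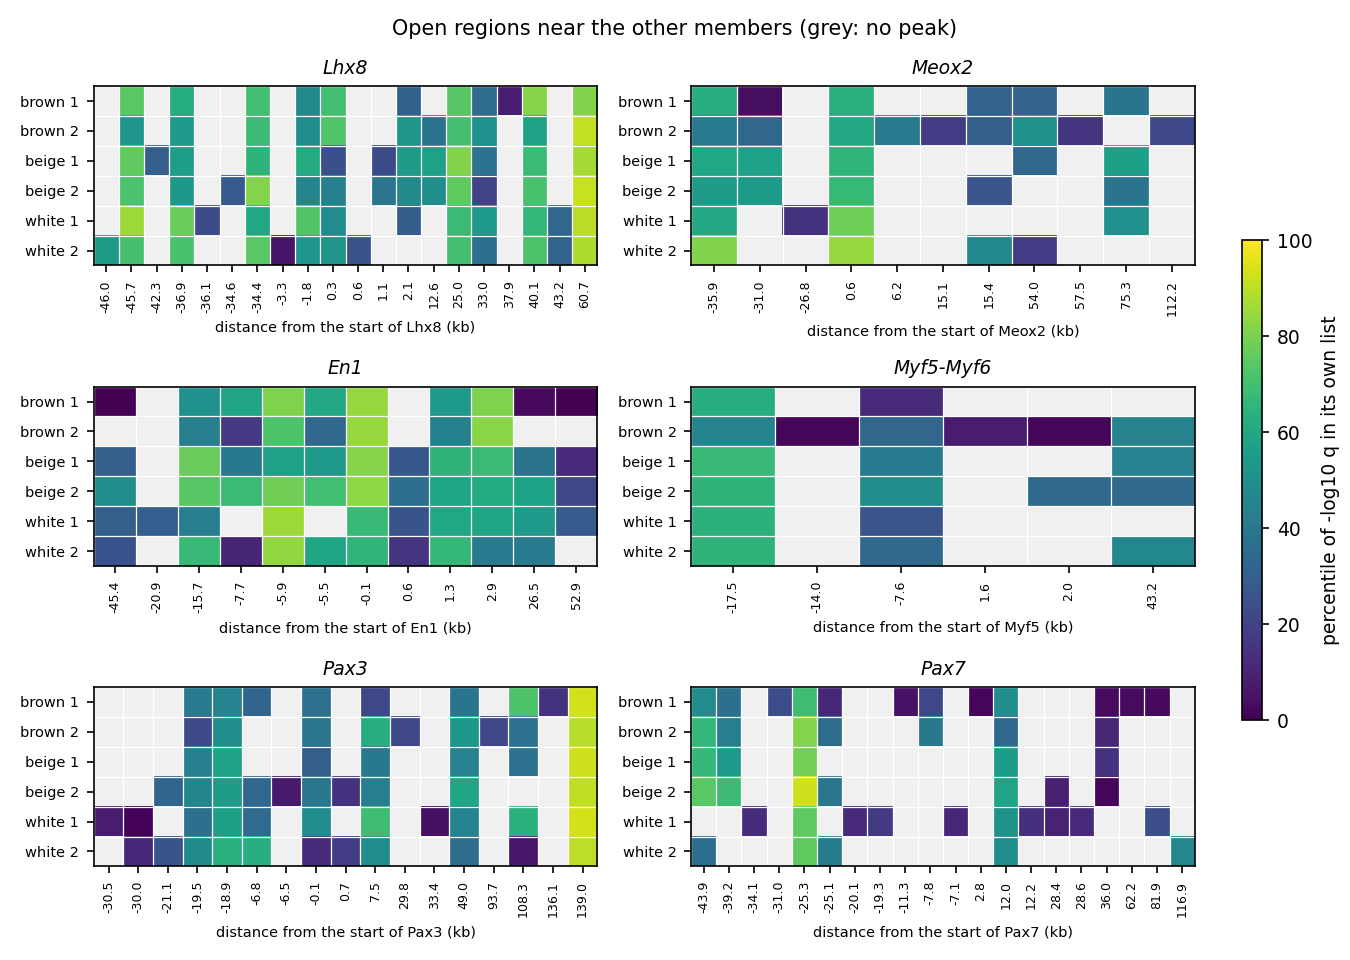
Percentile of -log10 q of each region (columns, by distance from the start of the named gene in kb) in each library (rows) at the 6 loci other than Zic1 and Zic4, with grey for no peak. Columns filled in all 6 rows alternate with columns filled in 1 row, 11 of them at Pax7, and the Lhx8 column at 0.3 kb is brightest in the brown rows.

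Over the 7 loci 100 regions were found, and for 97 of them the nearest protein-coding start was that of one of the 9 genes. Of these 100, 5 were brown-only, 1 was open in all 4 inguinal and no brown library, 29 were open in all 6 libraries and 33 in 1 library. The last 2 shares are close to the 30.2% and 37.2% of all regions, and of the 5 brown-only regions 4 lay at Zic1 and Zic4. The 29 regions open in all libraries had a median highest -log10 q of 25.7, with a range of 9.03 to 109. Those of 1 library had a median of 3.80 and reached 10.2 at most, and the 5 brown-only regions had a median of 9.96. Summed over the loci, peaks numbered 74 and 69 in brown, 62 and 65 in beige and 60 and 61 in white. The mean was 71.5 ± 3.5 (SD, n = 2) in brown and 62.0 ± 2.2 (SD, n = 4) in the inguinal libraries, a difference of 9.5, of which Zic1 and Zic4 gave 7.0. The summed difference was 3.75 at q under 0.00001 and 5.25 when every summit was counted, less than the 7.25 at Zic1 and Zic4 under each of these settings.

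**Figure D4:**
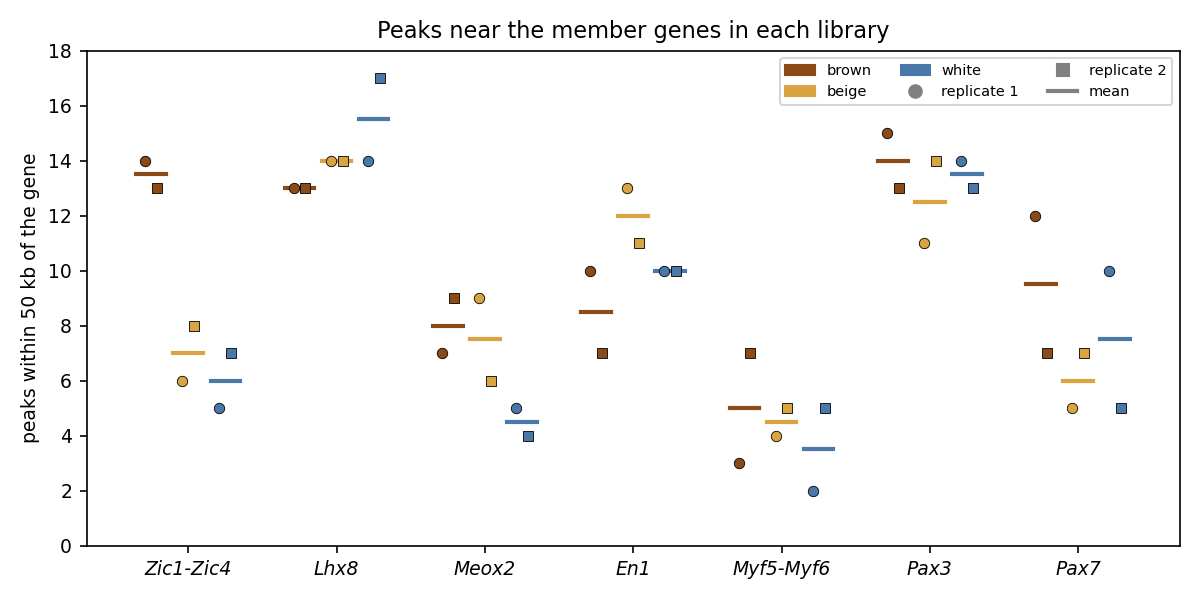
Peaks within 50 kb of each locus (y axis) in each library, with bars at the group means. Brown points lie above all inguinal points at Zic1 and Zic4, with 14 and 13 against 5 to 8, and below all of them at Lhx8, with 13 and 13 against 14 to 17, while at the other 5 loci brown and inguinal points overlap.

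**Figure D5:**
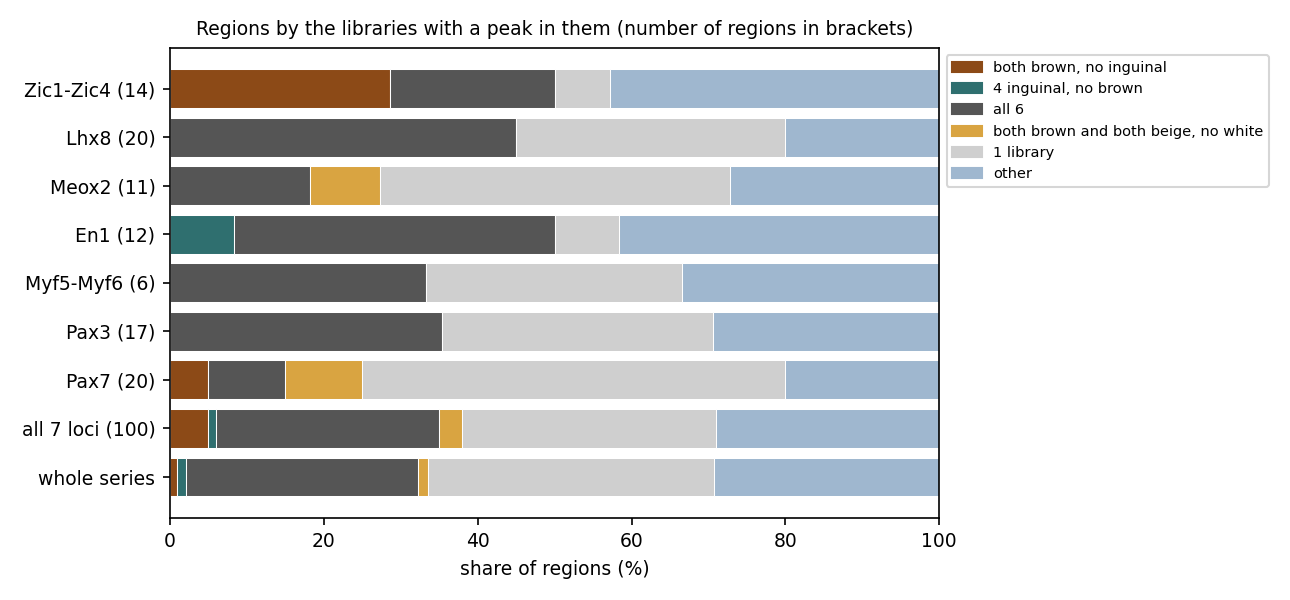
Share of regions (x axis, %) by the libraries that had a peak in them, for each locus with its number of regions in brackets and for all 194610 regions of the series. Brown-only regions make up 28.6% of those at Zic1 and Zic4, 5.0% at Pax7 and none at the other 5 loci, against 0.877% in the whole series.

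Promoter peaks in both brown libraries were found for 6 of the 9 genes, Zic1, Zic4, Lhx8, Meox2, En1 and Pax3, against 64.2% of all genes. None of the 9 had a promoter peak within 1 kb in both brown and no inguinal library, a pattern of 0.160% of genes. Of 21 other somite and dermomyotome genes, 15 had a promoter peak in all 6 libraries, against 62.0% of all genes, 1 had none in any (Meox1, named after its values were seen), against 28.6%, and none was brown-only or the inverse, which 0.188% of genes were. The 4 first by name, Dmrt2, En2, Eya1 and Eya2, show the range. Dmrt2, a somite factor, ranked at 92.6 and 88.2 in brown, 90.8 and 91.7 in beige and 87.4 and 88.5 in white. Eya1, a coactivator in somites and muscle progenitors, ranked at 73.5 and 76.6, 65.2 and 70.3, and 80.3 and 84.9 in the same order. Its relative Eya2 had 64.0 and 45.9 in brown, 34.5 in beige replicate 1, none in beige replicate 2, and 30.9 and 8.99 in white. The En1 paralog En2 was at 44.0 and 34.9 in brown, 71.1 in beige replicate 2, none in beige replicate 1, and 71.6 and 48.8 in white.

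Among 19 myogenic and skeletal muscle genes, 9 and 6 had a promoter peak in brown, 6 and 11 in beige and 7 and 10 in white, 5 of them in all libraries and 6 in none, beside the 62.0% and 28.6% of all genes. Acta1, skeletal muscle actin, had no peak in either brown library or in beige replicate 1, and had 8.52 in beige replicate 2 and 43.1 and 2.66 in white. Actn3, an actinin of fast fibres, ranked at 94.2 to 97.4 in all 6 libraries. The calcium channel gene Cacna1s had none, and Cdh15, a cadherin of muscle progenitors, had 29.1 in brown replicate 1, none in brown replicate 2, 15.0 and 59.1 in beige and 58.9 and 29.3 in white. No gene of this list was brown-only, and the numbers of brown and inguinal libraries overlapped.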

How the data were processed

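The authors trimmed reads, aligned them to mm10 with BWA and called peaks per library with MACS2 at q under 0.05. The deposited lists give for each summit a score, a fold enrichment (a ratio of the pileup to that library's own local background) and -log10 p and -log10 q as the authors' caller gave them. They hold no read counts, so depth is not known from them. The study gives read totals for the inguinal libraries only, and they were not used here. By those totals both beige libraries had fewer mapped reads, and a lower mapped share, than both white ones. Whether this shaped differences between beige and white was not tested. Precision rests on 2 libraries per group. The fold and the score were not compared between libraries. All chromosomes of each list fell within mm10 lengths.

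An interval with several summits was counted once, at its highest -log10 q. Intervals of the 6 libraries sharing at least 1 bp were merged into regions with Python 3.11.15 (pandas 2.3.3, numpy 2.4.6, pysam 0.24.0). Genes and starts were the protein-coding transcripts of GENCODE M21's basic set, and sequences were read from GRCm38.p6. Printed sequences avoid exons of GENCODE and curated RefSeq messenger RNAs. Assignment of peaks to promoters was tested on simulated data. All 9 genes are named. Of other lists, genes brown-only or the inverse at the promoter, or otherwise at most 4 by alphabet, are named, with 5 genes most like Zic1. Macrophage markers, Meox1, Foxc2, Ucp1 and Wt1 were named after their values were seen, as were the other genes with a brown-only region at the start. The members, lists and motifs were chosen with earlier results of these data known. Longer degenerate motifs were also searched and are not reported here. Windows, promoter distances, q limits, list lengths and single libraries were varied. One gene's result is not reported here.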

Additional observations from a re-analysis of the deposited data

How the results depend on the processing

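No paired analysis was possible because peak lists of 2 against 4 libraries gave values only, with no test to block. The count of members with a promoter peak in both brown libraries (6) was within 1.5 times under all alternatives run. The 5 brown-only regions stayed within 1.5 times under every alternative except leaving out a brown library, when 1 library alone defines the class: 13 without brown replicate 1 and 12 without brown replicate 2 (range 5 to 13). The number open in all 4 inguinal and no brown library rose from 1 to 2 at q under 0.01, to 2 at q under 0.00001, to 3 with equally long lists and to 2 with regions built from summits within 150 bp, and ranged from 1 to 3 when a library was left out, with 3 without brown replicate 1. Members with a promoter peak in both brown and no inguinal library went from 0 to 1 at a promoter distance of 250 bp (Zic1), to 1 at q under 0.00001 (Zic4) and to 1 without beige replicate 2 (Zic1), and ranged from 0 to 1 over libraries left out. The difference of 9.5 peaks over all loci was 3.75 at q under 0.00001 and 5.25 when every summit was counted, and ranged from 7.0 to 12.0 over libraries left out. For these 2 alternatives the cause was not tested. At Zic1 and Zic4 the difference of 7.0 peaks moved by less than the spread between replicates under every alternative run, with 6.5 to 7.5 over libraries left out. Differences smaller than the spread of 2 libraries could not be detected.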

Other observations

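Foxc2, a forkhead factor of somites also known for a role in brown fat and named after its values were seen, had a promoter peak in all 6 libraries. Its percentile of -log10 q was 83.2 and 86.3 in brown, 85.5 and 86.2 in beige and 56.6 and 71.3 in white. The brown and beige libraries overlapped, and both white libraries were lower, an order found at 22.2% of promoters open in all libraries.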
